A study of Craterostigma plantagineum with 12 samples.

Results

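Of the 48045 contigs in the leaf expression table of the resurrection plant Craterostigma plantagineum, 676 were described as retroelements, and the 10 of these with the strongest rise in reads on drying are described here. Contigs are pieces that an assembler joined from reads, so their number says nothing of the number of genes or of copies of an element. The 10 were picked by measured values, namely the gain in mean CPM (counts scaled to a common library total) of the 6 drying libraries over the 3 fresh ones, and they are exactly the 10 largest gains among the 676. The smallest gain inside was 108 CPM for Cp_V2_contig_45147, and the largest outside was 105 CPM for Cp_V2_contig_26431, so the border separates contigs with nearly the same gain. Together the 10 gained 6484 CPM, which is 88.9% of the summed gains of the 233 retroelement contigs whose mean CPM was higher on drying. Cp_V2_contig_4554 alone made up 32.1% of the gain of the 10, while the same difference summed over the other 666 contigs was -1329 CPM. All values at 100, 60 and 2% relative water content (RWC) therefore went into the choice, and they are given as a description without a test.

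Craterostigma plantagineum can lose almost all leaf water and resume growth after rain. Total RNA of leaves from vegetatively propagated plants was sequenced in 4 states: fresh leaves of untreated plants at 100% RWC, partly dried leaves at 60% RWC after 3 to 4 days of drying in pots, desiccated leaves at 2% RWC after 15 days, and leaves of such desiccated plants after 24 h under water. Each state had 3 libraries from independent pools of leaves of 6 to 9 plants, and the labels name no genotype, allele or plant age. Plants kept watered over the same days were not analysed here, so water content and time without water cannot be told apart, and in leaf pools fewer cells of a type and less RNA per cell cannot be told apart either. Libraries held 14784251 to 21271288 reads.

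Ty1-copia elements are retrotransposons: their RNA is copied into DNA and inserted at another place in the genome. A complete copy carries long terminal repeats and encodes a Gag protein that packs the RNA and a Pol polyprotein, which is cut into protease, integrase, reverse transcriptase and RNase H. Tnt1 of tobacco, the element behind the description TNT 1-94, is a copia element known for transcription under stress. In Craterostigma, the CDT-1 family, found by activation tagging in callus that had become desiccation tolerant, is known to resemble a short retrotransposon. Words of the deposited descriptions found no contig of that family here.

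Of the 10 contigs, 8 were described as retrovirus-related Pol polyprotein from transposon TNT 1-94 and 2, Cp_V2_contig_4554 and Cp_V2_contig_30477, as putative Ty1-copia subclass retrotransposon proteins. The best Arabidopsis match was called a putative retroelement pol polyprotein for 7 of them and a copia-type polyprotein for the other 3, so this second column of the annotation named copia for 3 of the 10 and a retroelement without its class for 7. The contigs were 395 bases (Cp_V2_contig_30477) to 3931 bases (Cp_V2_contig_29350) long, against a median of 522 over the whole table, and 9 of the 10 were longer than that median. Cp_V2_contig_45011, Cp_V2_contig_26375, Cp_V2_contig_29350 and Cp_V2_contig_44825 shared 1 best hit, a polyprotein of the bean Phaseolus vulgaris, with 7 further contigs. These 4 may therefore be related sequences or pieces of the same kind of element; this was not tested, and they are not treated as independent. Reads that also matched other contigs made up 7.98% of the reads of Cp_V2_contig_44825, 5.38% of those of Cp_V2_contig_30477 and 0.00 to 0.948% of those of the other 8. No base sequence of the contigs was at hand, so none is shown.

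Levels are given as RPKM, deposited values that divide reads by contig length and by all reads of the library, for replicates 1, 2 and 3 in that order. Fold changes are log2 folds of an edgeR fit to the read counts of all 12 libraries, with TMM scaling, which sets the bulk of contigs at no change. TMM factors were 1.14 to 1.19 in rehydrated and 0.863 to 0.919 in 2% RWC libraries, so for rehydrated against 2% RWC leaves a fitted log2 fold lies about 0.39 below a fold from library totals, on which RPKM rests.

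In fresh leaves the 10 contigs had few reads. Their mean levels there ran from 0.434 RPKM for Cp_V2_contig_29350 to 3.83 RPKM for Cp_V2_contig_26375 and Cp_V2_contig_38509, and next neighbours in the order of levels overlapped in their ranges. Behind these levels stood 588 reads in the 3 fresh libraries for Cp_V2_contig_4554 and 11 for Cp_V2_contig_30477 (exact Poisson interval 5.49 to 19.7 at 95%, which covers counting error alone because no molecular tags were used). The folds against fresh leaves rest on these low counts. In 2% RWC leaves, by contrast, 2 of the 10 stood among the 100 most abundant contigs of the table.

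**Figure D1:**
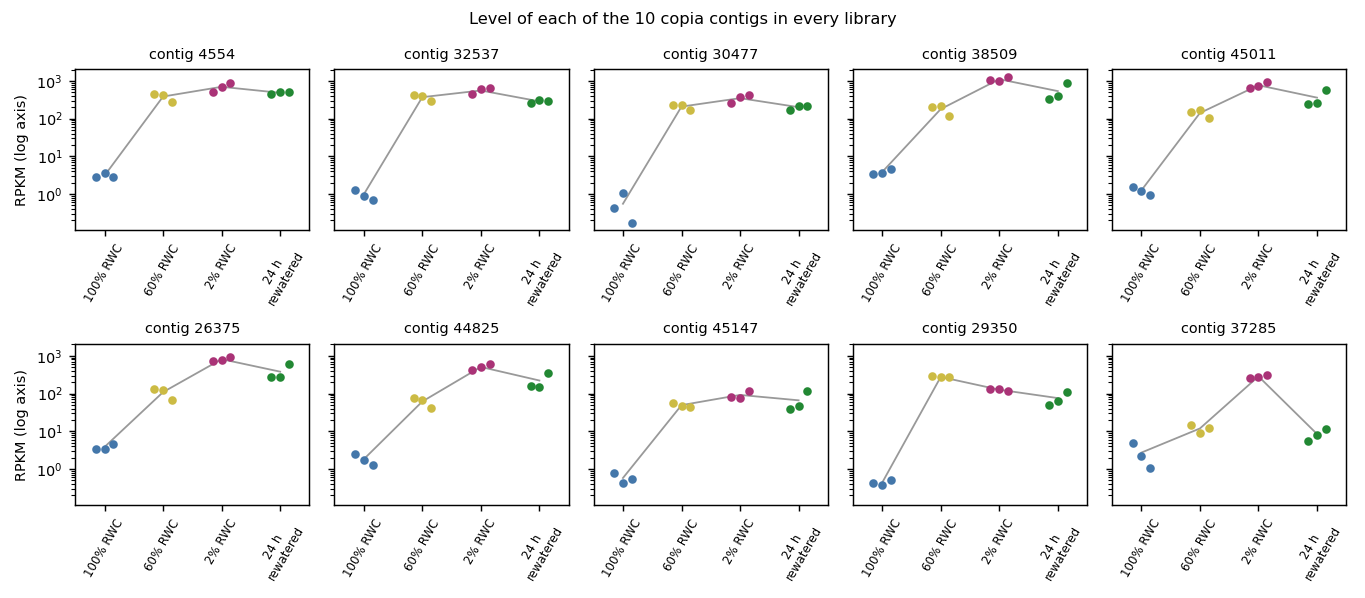
RPKM (log axis) of each of the 10 copia contigs in the 3 libraries of each state, from fresh leaves over 60 and 2% RWC to 24 h of rehydration; points are libraries and the line joins the means. All 10 have their 3 fresh libraries below every other library; Cp_V2_contig_29350 is highest at 60% RWC, and Cp_V2_contig_37285 stands at 263 RPKM or more at 2% RWC and at 14.4 RPKM or less elsewhere.

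The contigs were grouped after the values were seen, mainly but not only by their course over drying. A first group of 3 had gained most of its level in partly dried leaves. Cp_V2_contig_4554, the longest of them with 3870 bases, had 2.89, 3.61 and 2.76 RPKM in fresh leaves, 462, 417 and 274 RPKM at 60% RWC, 505, 705 and 879 RPKM at 2% RWC and 440, 492 and 514 RPKM after rehydration. Its libraries at 2% RWC lay above those at 60% RWC, and the rehydrated ones overlapped both. Cp_V2_contig_32537 had 1.30, 0.914 and 0.708 RPKM in fresh leaves, 422, 398 and 290 RPKM at 60% RWC, 437, 596 and 635 RPKM at 2% RWC and 256, 312 and 290 RPKM after rehydration. Cp_V2_contig_30477 had 0.437, 1.05 and 0.171 RPKM in fresh leaves, 226, 224 and 173 RPKM at 60% RWC, 261, 364 and 420 RPKM at 2% RWC and 167, 218 and 218 RPKM after rehydration. In all 3 the step into partial drying was the larger one: the log2 fold of 60% over 100% RWC was 7.07 (SE 0.33) for Cp_V2_contig_4554, 8.65 (SE 0.37) for Cp_V2_contig_32537 and 8.60 (SE 0.42) for Cp_V2_contig_30477. That of 2% over 60% RWC was 0.98 (SE 0.25), 0.71 (SE 0.26) and 0.87 (SE 0.28) for the same 3 contigs.

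A second group of 4 contigs gained most of its level in the later part of drying. Cp_V2_contig_38509, which reached the highest level of the 10, had 3.47, 3.53 and 4.48 RPKM in fresh leaves, 198, 219 and 119 RPKM at 60% RWC, 1031, 998 and 1294 RPKM at 2% RWC and 340, 389 and 877 RPKM after rehydration. Cp_V2_contig_45011 had 1.57, 1.21 and 0.968 RPKM in fresh leaves, 147, 169 and 106 RPKM at 60% RWC, 656, 735 and 906 RPKM at 2% RWC and 249, 253 and 576 RPKM after rehydration. In both, replicate 3 was the lowest library at 60% RWC and the highest at 2% RWC and after rehydration, numbers that do not pair libraries across states. Cp_V2_contig_26375 had 3.47, 3.49 and 4.54 RPKM in fresh leaves, 131, 127 and 69.5 RPKM at 60% RWC, 733, 773 and 939 RPKM at 2% RWC and 279, 271 and 590 RPKM after rehydration. Cp_V2_contig_44825 had 2.47, 1.70 and 1.27 RPKM in fresh leaves, 73.9, 68.8 and 41.9 RPKM at 60% RWC, 431, 490 and 601 RPKM at 2% RWC and 162, 153 and 350 RPKM after rehydration. For all 4 the states did not overlap, and the rehydrated libraries lay between those at 60 and at 2% RWC. The log2 fold of 2% over 60% RWC was 2.75 (SE 0.38) for Cp_V2_contig_38509, 2.56 (SE 0.37) for Cp_V2_contig_45011, 3.02 (SE 0.36) for Cp_V2_contig_26375 and 3.16 (SE 0.40) for Cp_V2_contig_44825. Their log2 folds of 60% over 100% RWC were larger, at 5.65, 6.90, 4.93 and 5.16 in that order. On the log2 scale the first step was thus the larger one in both groups, which differ in when most RPKM was gained.

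The remaining 3 contigs were Cp_V2_contig_29350, Cp_V2_contig_37285 and Cp_V2_contig_45147. Cp_V2_contig_29350, the longest of the 10, was highest in partly dried leaves, with 0.425, 0.377 and 0.499 RPKM in fresh leaves, 284, 267 and 277 RPKM at 60% RWC, 129, 134 and 117 RPKM at 2% RWC and 49.7, 64.6 and 113 RPKM after rehydration. It is the one contig of the 10 that was lower at 2% than at 60% RWC (log2 fold -1.01, SE 0.27), although it shared its best hit with 3 contigs of the second group. Cp_V2_contig_37285 was high in desiccated leaves, with 4.80, 2.27 and 1.09 RPKM in fresh leaves, 14.4, 8.92 and 12.3 RPKM at 60% RWC, 263, 274 and 318 RPKM at 2% RWC and 5.69, 8.00 and 11.7 RPKM after rehydration. Its log2 fold of 60% over 100% RWC was the smallest of the 10 (2.18, SE 0.48) and that of 2% over 60% RWC the largest (4.71, SE 0.53). Cp_V2_contig_45147, the lowest of the 10 at 2% RWC, had 0.785, 0.423 and 0.527 RPKM in fresh leaves, 54.9, 47.6 and 45.3 RPKM at 60% RWC, 80.7, 75.7 and 119 RPKM at 2% RWC and 38.4, 46.7 and 113 RPKM after rehydration. Its log2 fold of 2% over 60% RWC (1.02, SE 0.39) was near that of Cp_V2_contig_4554 in the first group, at a lower level. Cp_V2_contig_45147 too had gained most of its level at 60% RWC, so by its course over drying alone it would join the first group.

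Over the 10, the log2 fold of 60% over 100% RWC ran from 2.18 to 9.41 with a median of 6.69, against a median of -0.06 over all 46494 tested contigs, of which 15.6% were called higher, and 17.1% had all libraries above the fresh ones as the 10 did. For 2% over 100% RWC it ran from 6.88 to 9.47 with a median of 8.36, against a median of -0.22 over all tested contigs, of which 26% were called higher and 34.9% lower, and 23.3% had all libraries above the fresh ones as the 10 did. For 2% over 60% RWC it ran from -1.01 to 4.71 with a median of 1.79, against a median of -0.13 over all tested contigs, of which 19.5% were called higher and 25% lower. Nothing is read from these folds about the strength of the response, because they chose the contigs.

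The order of the contigs changed with the state. At 60% RWC Cp_V2_contig_4554 (384 ± 98.3 RPKM, SD, n = 3) and Cp_V2_contig_32537 (370 ± 70.2 RPKM) stood highest with overlapping ranges, followed by Cp_V2_contig_29350 (276 ± 8.34 RPKM). The range of Cp_V2_contig_29350 overlapped that of Cp_V2_contig_4554. It was apart from those of Cp_V2_contig_32537 and of Cp_V2_contig_30477, the next one below. At 2% RWC Cp_V2_contig_38509 led with 1107 ± 162 RPKM, apart from Cp_V2_contig_26375 (815 ± 109 RPKM), Cp_V2_contig_45011 (766 ± 127 RPKM) and Cp_V2_contig_4554 (696 ± 187 RPKM), whose ranges overlapped one another in that order. After rehydration Cp_V2_contig_38509 (mean 536 RPKM) and Cp_V2_contig_4554 (482 ± 38.2 RPKM) stood highest and overlapped, and Cp_V2_contig_37285 was last with 8.46 ± 3.03 RPKM. Levels are compared per length here, and a contig that covers part of a transcript can still miss reads of its ends.

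**Figure D2:**
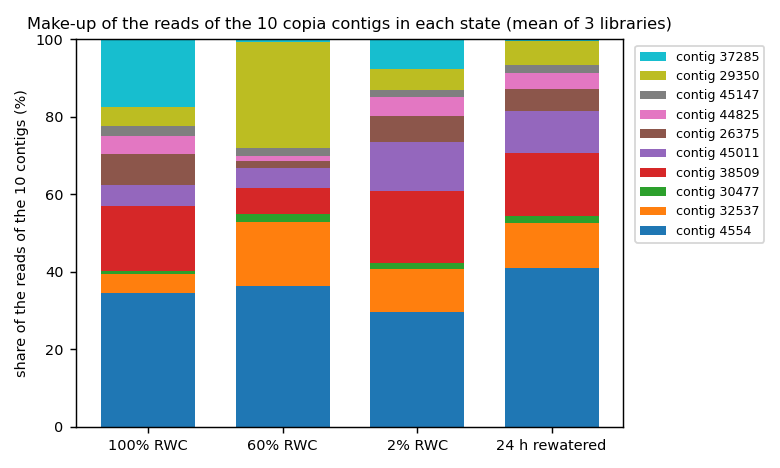
Share of the reads of the 10 copia contigs (%, mean of 3 libraries) that came from each contig, for fresh leaves, 60% RWC, 2% RWC and 24 h of rehydration; each colour is a contig. Cp_V2_contig_29350 holds 27.4% at 60% RWC and 5.66% at 2% RWC, and Cp_V2_contig_37285 holds 7.52% at 2% RWC and 0.418% after rehydration.

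By number of reads, which favours long contigs, Cp_V2_contig_4554 made up 36.4 ± 3.53% of the reads of the 10 at 60% RWC, 29.6 ± 3.25% at 2% RWC and 41.1 ± 7.63% after rehydration. Cp_V2_contig_29350 held 27.4 ± 5.12% at 60% RWC, 5.66 ± 1.22% at 2% RWC and 6.16 ± 0.98% after rehydration. Ratios of levels within a library need no library total. Over the 9 libraries of dried and rehydrated leaves, the level of Cp_V2_contig_32537 was 0.563 to 1.06 times that of Cp_V2_contig_4554, and the level of Cp_V2_contig_45011 was 0.637 to 0.892 times that of Cp_V2_contig_38509. Other ratios spread more. The level of Cp_V2_contig_38509 was 0.428 to 2.04 times that of Cp_V2_contig_4554, with 0.428 to 0.526 at 60% RWC and 1.42 to 2.04 at 2% RWC. Cp_V2_contig_37285 was 0.0129 to 0.522 times the level of Cp_V2_contig_4554.

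The 3 rehydrated libraries were not part of the choice, so rehydrated leaves could be tested against each earlier state, although the libraries on the other side of each test had been used to pick the contigs. A high pick at 2% RWC makes a lower value elsewhere more likely, and this bears on the test against 2% RWC leaves. Low values in fresh leaves added to the gain too, and this bears on the test against fresh leaves.

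After 24 h under water 9 of the 10 contigs fell relative to 2% RWC leaves (edgeR quasi-likelihood test, Benjamini-Hochberg adjusted over all tested contigs), where 25.4% of all tested contigs were called lower. Cp_V2_contig_37285, the contig that was high in fully desiccated leaves, had 8.46 ± 3.03 RPKM after rehydration and 285 ± 29.0 RPKM at 2% RWC (SD, n = 3 each), 2.97% of the desiccated level (log2 fold -5.46, SE 0.55, edgeR adjusted p = 1.03e-05). The other 8 that fell kept 43.7 to 69.3% of their mean RPKM. Cp_V2_contig_44825 had a log2 fold of -1.58 (SE 0.38, edgeR adjusted p = 0.00409) and Cp_V2_contig_32537 of -1.36 (SE 0.26, edgeR adjusted p = 0.00109). For 8 of the 10 the rehydrated libraries lay below all 2% RWC libraries, as for 23.5% of all tested contigs, and the ranges of Cp_V2_contig_4554 and Cp_V2_contig_45147 overlapped. Cp_V2_contig_4554 was called in the TMM fit (log2 fold -0.93, SE 0.25, edgeR adjusted p = 0.00844) and not called with library totals alone (log2 fold -0.53, edgeR adjusted p = 0.0879). Cp_V2_contig_45147 was not called (log2 fold -0.86, SE 0.39, edgeR adjusted p = 0.0807), and without rehydrated replicate 3 its log2 fold was -1.52 (edgeR adjusted p = 0.00206). Across all tested contigs the median log2 fold was 0.13, and with library totals alone, 0.51.

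**Figure D3:**
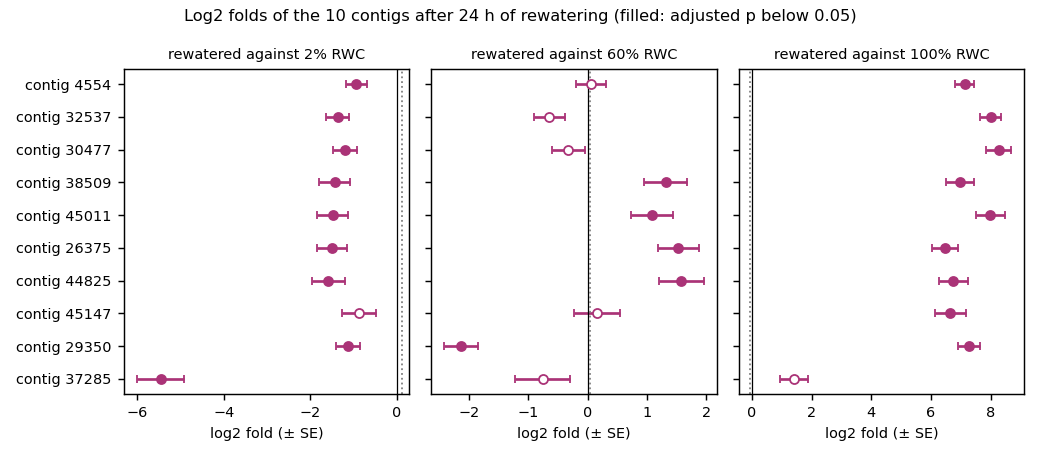
Fitted log2 fold of each of the 10 copia contigs for rehydrated leaves over 2% RWC, 60% RWC and 100% RWC leaves, with its SE as the error bar; the median of all tested contigs is marked in each panel. Against 2% RWC the folds lie between -5.46 and -0.86, against 60% RWC they fall on both sides of 0, and against 100% RWC they lie between 1.42 and 8.28.

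Set against partly dried leaves, the rehydrated leaves were higher for some of the contigs and lower for 1. The second group was formed by low values at 60% against 2% RWC, which makes a higher value after rehydration more likely. Cp_V2_contig_29350 was set apart by its high values at 60% RWC, with the opposite effect. The calls of these contigs are therefore not independent of the grouping. All 4 of the second group rose relative to 60% RWC, where 19.6% of all tested contigs were called higher: Cp_V2_contig_44825 had 222 ± 111 RPKM after rehydration and 61.5 ± 17.2 RPKM at 60% RWC (log2 fold 1.58, SE 0.38, edgeR adjusted p = 0.00713). Cp_V2_contig_26375 had a log2 fold of 1.53 (SE 0.34, edgeR adjusted p = 0.00489), Cp_V2_contig_38509 of 1.31 (SE 0.36, edgeR adjusted p = 0.0149) and Cp_V2_contig_45011 of 1.08 (SE 0.35, edgeR adjusted p = 0.0319). Cp_V2_contig_29350 fell, with 75.7 ± 32.9 RPKM after rehydration and 276 ± 8.34 RPKM at 60% RWC (log2 fold -2.13, SE 0.28, edgeR adjusted p = 0.000148), where 17.5% of all tested contigs were called lower. For these 5 the libraries of the states did not overlap, as for 40.1% of all tested contigs with higher and 19.9% with lower rehydrated libraries. The first group, Cp_V2_contig_37285 and Cp_V2_contig_45147 were not called, with log2 folds of 0.05 (SE 0.25) for Cp_V2_contig_4554, -0.65 (SE 0.26) for Cp_V2_contig_32537, -0.33 (SE 0.28) for Cp_V2_contig_30477, -0.76 (SE 0.46) for Cp_V2_contig_37285 and 0.16 (SE 0.39) for Cp_V2_contig_45147. Without rehydrated replicate 3 the folds were 0.74 (edgeR adjusted p = 0.0676) for Cp_V2_contig_38509 and 0.55 (edgeR adjusted p = 0.169) for Cp_V2_contig_45011, so 2 of the 4 calls rest on that library. Cp_V2_contig_26375 and Cp_V2_contig_44825 were called without it as well, at 1.04 (edgeR adjusted p = 0.018) and 1.07 (edgeR adjusted p = 0.0297). Without 60% RWC replicate 3, likewise, Cp_V2_contig_38509 had 1.08 (edgeR adjusted p = 0.0644) and Cp_V2_contig_45011 0.91 (edgeR adjusted p = 0.12).

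A day under water did not bring 9 of the 10 contigs back to the level of fresh leaves. They rose relative to 100% RWC, where 3.71% of all tested contigs were called higher, with log2 folds of 6.46 to 8.28 and mean RPKM 99.1 to 363 times that of fresh leaves. The fresh libraries had gone into the choice of the contigs, so these calls are not independent of it. Cp_V2_contig_4554 had 482 ± 38.2 RPKM after rehydration and 3.09 ± 0.459 RPKM in fresh leaves (log2 fold 7.12, SE 0.33, edgeR adjusted p = 1.02e-06). Cp_V2_contig_30477 had 201 ± 29.6 RPKM after rehydration and 0.553 ± 0.451 RPKM in fresh leaves (log2 fold 8.28, SE 0.42, edgeR adjusted p = 2.08e-06). These 9 were called under every alternative tried, while the count over all contigs ran from 380 to 11219. Cp_V2_contig_37285 was the exception, with 8.46 ± 3.03 RPKM after rehydration and 2.72 ± 1.89 RPKM in fresh leaves (log2 fold 1.42, SE 0.47, edgeR adjusted p = 0.0823). Without fresh replicate 1, its highest fresh library, the fold was 2.26 (edgeR adjusted p = 0.00431), and DESeq2 gave 1.40 (DESeq2 adjusted p = 0.0315). All 10 had their 3 rehydrated libraries above the fresh ones, as 14.8% of all tested contigs did. The difference between Cp_V2_contig_37285 and the other 9 in what was left after rehydration was not tested.

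Rehydrated replicate 3 stood apart for part of the contigs. It was over 1.5 times both other rehydrated libraries in 6 of the 10, with 1.97 to 2.66 times the mean of replicates 1 and 2, against 9.74% of all tested contigs. These 6 were the second group, Cp_V2_contig_29350 and Cp_V2_contig_45147, while the 3 contigs of the first group were 1.02 to 1.13 times that mean. Cp_V2_contig_45147, whose course over drying was like that of the first group, had the largest value, 2.66 times. Over 46494 contigs, the Pearson r of rehydrated replicate 3 with the mean of the 2% RWC libraries was 0.684 (log2 CPM). Those of rehydrated replicates 1 and 2 were 0.687 and 0.723. A value over so many contigs says little of a few of them, and the reason for the higher levels in replicate 3 was not tested. In partly dried leaves replicate 3 was the lowest library for the first and second group, at 0.539 to 0.771 times the mean of replicates 1 and 2, and was level with them for Cp_V2_contig_29350 (1.00 times) and Cp_V2_contig_37285 (1.06 times).

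As a share of all reads, the 10 contigs held 0.00402, 0.00347 and 0.00300% in fresh libraries, 0.455, 0.430 and 0.326% in partly dried ones, 0.755, 0.883 and 1.06% in desiccated ones and 0.373, 0.420 and 0.616% in rehydrated ones. No state overlapped another except rehydrated with 60% RWC leaves. Of the reads of all 676 retroelement contigs the mean share of the 10 was 0.750% (range 0.628 to 0.853) for fresh libraries, 52.0% (46.3 to 55.1) for partly dried ones, 74.9% (72.2 to 78.3) for desiccated ones and 52.9% (50.9 to 56.8) for rehydrated ones.

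**Figure D4:**
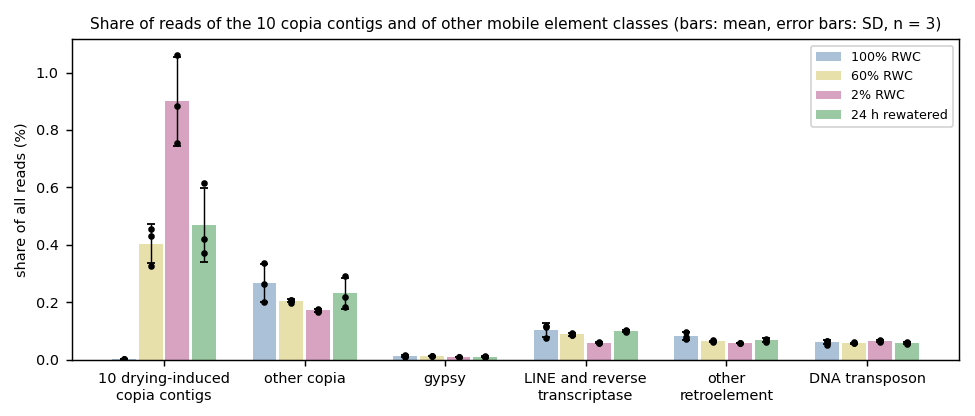
Share of all reads (%) of the 10 copia contigs and of 5 other classes of mobile elements in fresh leaves, 60% RWC, 2% RWC and rehydrated leaves; bars are means, error bars SD, points the 3 libraries of a state. The 10 contigs reach 0.900% at 2% RWC, whereas the other copia contigs hold 0.172% there and 0.267% in fresh leaves.

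The mean share of the other 666 retroelement contigs was 0.465% in fresh libraries (0.404 to 0.517), 0.369% in partly dried ones (0.355 to 0.379), 0.297% in desiccated ones (0.291 to 0.304) and 0.410% in rehydrated ones (0.361 to 0.469). Fresh and rehydrated libraries overlapped, and desiccated libraries lay below all others. The 344 other copia contigs held 0.267 ± 0.0664% of reads in fresh libraries, 0.205 ± 0.00592% in partly dried ones, 0.172 ± 0.0059% in desiccated ones and 0.231 ± 0.0536% in rehydrated ones (SD, n = 3 each). Of the 313 of them that were tested, 52 were called higher and 131 lower at 2% than at 100% RWC, with a median log2 fold of -0.70. Of all tested contigs 26% were called higher and 34.9% lower there, with a median of -0.22. Taking the 10 out removes the contigs that gained most from the read share and from the counts, 10 contigs beside the 313 tested here. After rehydration 82 of the 313 were higher and 63 lower than at 2% RWC, with a median of 0.28, where 31.1% of all tested contigs were called higher and 25.4% lower. With library totals alone these counts were 119 and 41, and the split of all called contigs moved from 14459 higher and 11796 lower to 18437 higher and 7818 lower. Against fresh leaves, rehydrated leaves had 16 of the 313 higher and 29 lower, beside 1727 higher and 2646 lower of all 46494 tested contigs.

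Of the 4 other classes, gypsy elements, which have long terminal repeats as copia elements do but another order of Pol domains, held 0.00848 ± 0.000442% of reads in desiccated and 0.0129 ± 0.00268% in fresh libraries. The class of LINE elements, retrotransposons without such repeats, and of contigs described by reverse transcriptase, an enzyme that copia and gypsy elements encode too, had 17 of 145 tested contigs higher and 61 lower at 2% than at 100% RWC (median log2 fold -0.71). Among other retroelements 20 of 111 were higher and 39 lower (median -0.50). DNA transposons, which move without an RNA copy, had 16 of 98 higher and 27 lower (median -0.26). Over all tested contigs the median was -0.22, with 26% called higher and 34.9% lower.

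The most abundant contig of each class, the 10 left aside, had 26.1 RPKM or more on average in fresh leaves. The copia contig Cp_V2_contig_537 had 254, 37.5 and 34.8 RPKM in fresh leaves, 14.2, 12.7 and 12.2 RPKM at 60% RWC, 19.1, 18.5 and 11.6 RPKM at 2% RWC and 54.4, 83.2 and 228 RPKM after rehydration. Its fresh replicate 1 and rehydrated replicate 3 stood far above their partners. Cp_V2_contig_17959, described as an integrase catalytic core, averaged 217 ± 55.9 RPKM in fresh leaves, 254 ± 11.0 RPKM at 60% RWC, 144 ± 11.3 RPKM at 2% RWC and 188 ± 8.89 RPKM after rehydration. Cp_V2_contig_386, a putative reverse transcriptase domain protein, had 55.0 ± 2.60 RPKM after rehydration and 21.8 ± 3.62 RPKM at 2% RWC (log2 fold 0.94, SE 0.21, edgeR adjusted p = 0.00216). The gypsy contig Cp_V2_contig_27651 had 37.5 ± 2.72 RPKM after rehydration and 54.9 ± 4.07 RPKM at 60% RWC (log2 fold -0.82, SE 0.20, edgeR adjusted p = 0.00737). Cp_V2_contig_6084, described as DAYSLEEPER-like after a domesticated hAT transposase of Arabidopsis, was not called in any of the 6 comparisons, with log2 folds from -0.17 to 0.35.

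Contigs with the same description as most of the 10 also went the opposite way. The 3 called retroelement contigs with the lowest fold of 2% over 100% RWC in the upper 50% of tested contigs by level were Cp_V2_contig_14030 (log2 fold -4.90, SE 0.39) and Cp_V2_contig_6308 (-4.41, SE 0.44), both described as TNT 1-94 Pol polyprotein, and Cp_V2_contig_10680 (-3.61, SE 0.48). The last is described as a polyprotein, but its best hit is named a putative EXS protein. Cp_V2_contig_14030 had 17.1, 21.9 and 42.4 RPKM in fresh leaves, 2.71, 2.32 and 2.59 RPKM at 60% RWC, 1.11, 0.721 and 0.491 RPKM at 2% RWC and 9.81, 12.9 and 9.86 RPKM after rehydration. It rose on rehydration relative to 2% RWC leaves (14.0-fold by mean RPKM, edgeR adjusted p = 1.82e-05), and so did Cp_V2_contig_6308 (log2 fold 3.00, SE 0.42, edgeR adjusted p = 0.000113) and Cp_V2_contig_10680 (2.38, SE 0.46, edgeR adjusted p = 0.00111). Of all tested contigs 31.1% were called higher in that comparison. These 3 were picked for low values at 2% RWC, which makes a higher value after rehydration more likely, so these calls are not independent of the choice.

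The next 5 contigs by gain, just below the 10, were highest at 60% RWC in 2 cases and at 2% RWC in 3. Cp_V2_contig_26431, which has the same best hit as Cp_V2_contig_29350, was highest at 60% RWC like it, with 0.485 ± 0.115 RPKM in fresh leaves, 98.2 ± 9.81 RPKM at 60% RWC, 35.0 ± 4.49 RPKM at 2% RWC and 14.9 ± 3.72 RPKM after rehydration. Cp_V2_contig_20463, described as a Copia protein, was high in partly dried leaves alone, a course that none of the 10 had, with 3.88 ± 1.10 RPKM in fresh leaves, 40.6 ± 3.02 RPKM at 60% RWC, 3.58 ± 0.329 RPKM at 2% RWC and 3.48 ± 1.21 RPKM after rehydration. Cp_V2_contig_22327 and Cp_V2_contig_43375 were highest at 2% RWC and low after rehydration, as Cp_V2_contig_37285 was. Cp_V2_contig_22327 had 15.5 ± 3.53 RPKM after rehydration and 185 ± 38.4 RPKM at 2% RWC (log2 fold -3.97, SE 0.61, edgeR adjusted p = 0.000218), and Cp_V2_contig_43375 had 9.21 ± 1.52 and 121 ± 22.8 RPKM in the same states (-4.11, SE 0.46, edgeR adjusted p = 2.32e-05). Both were named for their gain on drying, which makes a lower value after rehydration more likely. Of all tested contigs 25.4% were called lower after rehydration than at 2% RWC. Neither of the 2 contigs was called against fresh leaves after rehydration. Cp_V2_contig_47224, of the same best hit as well, had 11.8, 15.0 and 38.3 RPKM after rehydration and 59.9, 49.3 and 40.7 RPKM at 2% RWC, again with rehydrated replicate 3 above its partners.

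**Figure D5:**
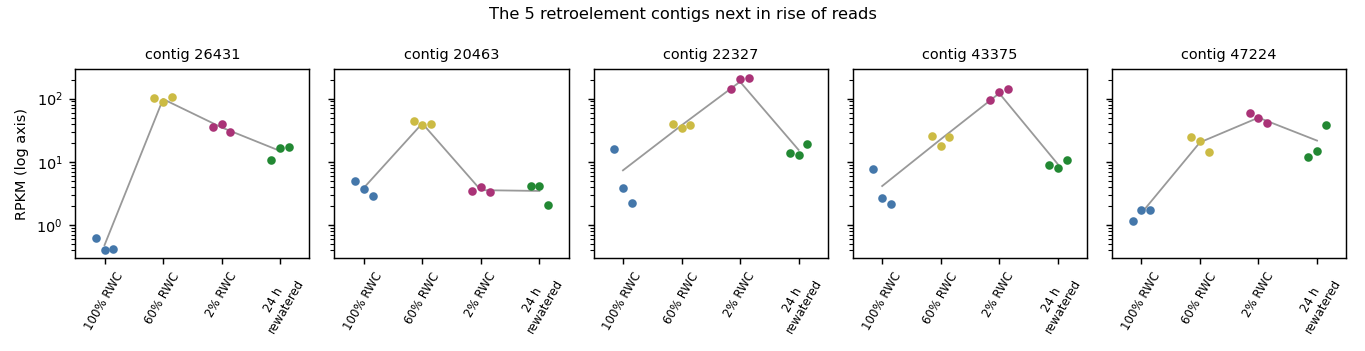
RPKM (log axis) of the 5 retroelement contigs next in gain of reads, in the 3 libraries of each state from fresh leaves over 60 and 2% RWC to 24 h of rehydration; points are libraries and the line joins the means. Cp_V2_contig_26431 and Cp_V2_contig_20463 are highest at 60% RWC, and the other 3 at 2% RWC.

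A shared best hit did not mean a shared course. Of the 7 further contigs with the Phaseolus vulgaris best hit, 3 were called higher at 2% than at 100% RWC and 1 lower, with a median log2 fold of 1.28. Cp_V2_contig_32638 was the lower one and had 0.233 RPKM at 2% RWC and 2.19 RPKM in fresh leaves on average. After rehydration 1 of the 7 was called higher and 2 lower than at 2% RWC, and 3 higher than in fresh leaves. Over all tested contigs 26% were called higher and 34.9% lower at 2% than at 100% RWC. For rehydrated leaves these shares were 31.1% higher and 25.4% lower against 2% RWC, and 3.71% higher against fresh leaves.

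Among described contigs of the upper 50% by level, the 5 most like the 10 were found by Pearson's r of log2 CPM with their mean course over the 12 libraries. The libraries fall into 4 states and share their totals, so r is a description. Cp_V2_contig_39236 (r = 0.995), described as luminal-binding protein 5, a chaperone of the endoplasmic reticulum, had 3.28 ± 0.666 RPKM in fresh leaves, 102 ± 10.5 RPKM at 60% RWC, 218 ± 48.1 RPKM at 2% RWC and 140 ± 86.6 RPKM after rehydration. In the rehydrated libraries it had 82.2, 97.9 and 239 RPKM, with replicate 3 the highest. Cp_V2_contig_41745 (r = 0.993), an F-box/FBD/LRR-repeat protein, of a family that binds targets for ubiquitin ligases, had 32.0, 39.4 and 84.9 RPKM after rehydration and 70.7, 78.3 and 98.3 RPKM at 2% RWC. The others were Cp_V2_contig_1610 (r = 0.984), described as lysosomal beta glucosidase-like, Cp_V2_contig_47754 (r = 0.978), a Copia-like polyprotein, and Cp_V2_contig_44688 (r = 0.975), a hypothetical protein. Among the 10 themselves r ran from 0.769 for Cp_V2_contig_37285 to 0.996 for Cp_V2_contig_45011.

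Leaf markers were present in every state, and some lists of words for cell types or other organs moved with the states. The 27 contigs of light-harvesting proteins had 0.742 to 2.31% of reads in fresh, 0.347 to 0.388% in 60% RWC, 0.209 to 0.323% in 2% RWC and 0.923 to 1.40% in rehydrated libraries, with reads in every state for each contig. The 16 contigs described by root words had 0.0142 to 0.0241% in fresh, 0.0271 to 0.0275% in 60% RWC, 0.0278 to 0.0307% in 2% RWC and 0.0254 to 0.0259% in rehydrated libraries, and 11 of the 14 tested were higher at 2% than at 100% RWC. Guard cell words (27 contigs) had 0.0193 to 0.0217% in desiccated and 0.0283 to 0.0480% in fresh libraries, with 1 of 26 tested contigs higher and 19 lower. Epidermis words (92) had 0.0663 to 0.0755% in desiccated and 0.135 to 0.182% in fresh libraries, with 12 of 89 higher and 52 lower. Vascular words (25) had 4 of 25 higher and 11 lower in the same comparison, and flower words (65) had 14 of 61 higher and 24 lower. Of all tested contigs 26% were called higher and 34.9% lower there, with a median log2 fold of -0.22. The medians for vascular (-0.27) and flower words (-0.24) were near it. Those for root (0.86), guard cell (-2.00) and epidermis words (-1.73) were further away. In desiccated libraries 2 epidermis and 2 flower contigs had no read. Their part in the levels of the copia contigs was not tested.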

How the data were processed

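Reads of leaf RNA were counted by the authors per contig of an assembled transcriptome. Per the labels, stranded libraries were sequenced as paired ends of 75 bases; assembler and mapper were not given in the sources used here, and neither was any use of strand. The counts are the deposited total gene reads, whole numbers that include reads matching several contigs, and a second deposited column of counts holds reads unique to a contig (98.5 to 98.7% of the total). The RPKM values were deposited by the authors, and recomputing them from counts, contig length and library total gave the same values within 1.56e-08 of their size. The deposited p-value and FDR columns of the authors' test across the 4 states were not used.

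The 12 libraries entered 1 fit in edgeR 4.0.16 (R 4.3.3) with a mean per state, TMM scaling, filterByExpr (minimum count 10, minimum total 15, 46494 of 48045 contigs kept, the 10 copia contigs among them) and robust quasi-likelihood tests, two-sided, adjusted by Benjamini-Hochberg over all tested contigs and called at 0.05. The SE is the absolute log2 fold divided by the square root of F. The procedure was tested on simulated counts. DESeq2 1.42.0, RLE and upper-quartile scaling, no filter, unique reads, the 2 states alone, a replicate block and leaving out each library were tried, and, chosen after seeing the data, library totals without TMM.

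The 10 contigs and the lists were chosen with earlier results of these data known. Lists were made by words in the deposited descriptions; after the descriptions were seen, the word ty1 was limited to whole words, replicase polyproteins were left out, and a list of CDT-1 words was dropped because it found other proteins. Besides the 10, the text names the next 5 retroelement contigs by gain, the most abundant contig of each class, the 3 lowest by fold of 2% over 100% RWC, the 5 most like the 10, and, in the lists on silencing and demethylation, the most abundant contig and the called contig with the largest fold. Libraries are separate leaf pools, and p-values set differences between states against the spread between libraries, which was estimated in part from all tested contigs. No genome was used, no coordinates are given, and samples after 48 h of rehydration were not used here.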

Additional observations from a re-analysis of the deposited data

How the results depend on the processing

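Of 1200 results of single copia contigs under an alternative, 1154 kept direction and side of the threshold, 25 lost and 18 gained a call and 3 turned direction. Among the 1200 are comparisons of the drying states with fresh leaves, whose direction the choice of contigs fixed, so that their share says nothing about stability. The 3 turns were in contigs not called for rehydrated against 60% RWC leaves: Cp_V2_contig_4554 had a log2 fold of -0.15 without 60% RWC replicate 3 and -0.01 without rehydrated replicate 3 (0.05 with all libraries), with 0.20 as the highest value when 1 library was left out, and Cp_V2_contig_45147 had -0.50 without rehydrated replicate 3 (0.16 with all), with 0.43 as the highest. In that comparison 3 to 6 of the 10 contigs were called when 1 library was left out, 3 of them without 60% RWC replicate 3 or rehydrated replicate 3, against 5 with all libraries. Cp_V2_contig_45011 also lost its call with these 2 states alone (adjusted p = 0.0557, edgeR) and without 60% RWC replicate 1 (adjusted p = 0.0788, edgeR), and Cp_V2_contig_32537 was called lower with the 2 states alone (adjusted p = 0.0106, edgeR), without any 1 of the fresh libraries, and by DESeq2 (adjusted p = 0.0433). The causes were not tested.

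Over all contigs, rehydrated against fresh leaves gave 4373 calls, 380 with these 2 states alone, 7450 by DESeq2, and 1522 to 11219 when 1 library was left out, the highest without fresh replicate 2 and the lowest without rehydrated replicate 2. The 60% against 100% RWC comparison gave 18089 calls and 11766 with the 2 states alone. With library totals in place of TMM, a choice made after seeing the data, rehydrated against 60% RWC leaves gave 12373 higher and 5419 lower contigs (9096 and 8125 with TMM), and rehydrated against fresh leaves 2247 and 1905 (1727 and 2646 with TMM). This scaling moved the median log2 fold of all contigs by 0.39 for rehydrated against 2% RWC, 0.27 against 60% RWC and 0.16 against 100% RWC leaves. Counted over reads outside the 100 most abundant contigs, the share of the 10 was 0.00442% in fresh leaves, 0.553% at 60% RWC and 1.18% at 2% RWC.

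Replicate numbers did not pair the libraries: deviations of same-numbered libraries correlated at -0.15 to 0.25, and in no comparison were all 3 pairs over 0.1. With the replicate number as a block, 10 of the 10 contigs were called for rehydrated against 2% RWC leaves (Cp_V2_contig_45147 with -0.93, edgeR adjusted p = 0.0496), 4 against 60% RWC (Cp_V2_contig_45011 lost, edgeR adjusted p = 0.0654) and 9 against fresh leaves.

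Depth limits the fresh level of Cp_V2_contig_30477 and Cp_V2_contig_45147, with 11 and 44 reads in 3 libraries, and so the size of their folds against fresh leaves. Each state has 3 libraries, and 1 library, rehydrated replicate 3, decides several values.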

Other observations

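Contigs whose descriptions name factors of gene silencing, which keep mobile elements quiet through small RNAs and DNA methylation, are given here by count. Of 133 tested contigs, 64 rose and 26 fell in rehydrated relative to 2% RWC leaves (median log2 fold 0.97, against 0.13 over all tested contigs, of which 31.1% rose and 25.4% fell), and in 2% against 100% RWC leaves 27 were called higher and 63 lower (median -0.85, against -0.22 over all tested contigs, of which 26% were called higher and 34.9% lower). With library totals alone 75 rose and 15 fell on rehydration. Rehydrated against fresh leaves gave 2 higher and 4 lower, beside 1727 higher and 2646 lower of all 46494 tested contigs. The most abundant of them, Cp_V2_contig_3488, a factor of DNA methylation 1-like protein, had 67.7 ± 11.6 RPKM after rehydration and 65.8 ± 2.47 RPKM at 2% RWC (SD, n = 3 each) and was not called. Cp_V2_contig_45002, described as factor of DNA methylation 1, was named for the largest called fold of this list in rehydrated against 2% RWC leaves. The size of that fold therefore follows from the choice. It had 76 reads in the 3 rehydrated libraries and none in the 3 desiccated ones. That is at least 8.91-fold higher in mean RPKM with a floor of 3 reads per library. The fresh libraries had 13, 0 and 26 reads. Of 9 contigs named for DNA demethylation, 6 rose and 1 fell on rehydration relative to 2% RWC (median log2 fold 1.34), beside the 31.1 and 25.4% of all tested contigs. Cp_V2_contig_13798, ROS1-like, a demethylase in Arabidopsis, had 14.7 ± 2.77 RPKM after rehydration and 4.41 ± 0.214 RPKM at 2% RWC (log2 fold 1.34, SE 0.20, edgeR adjusted p = 0.000144). Cp_V2_contig_22310, described as DEMETER, was named by the same rule in the demethylation list. It had 142 reads after rehydration and none at 2% RWC, at least 16.8-fold higher.

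Contigs described as heat stress transcription factors, activators of chaperone genes, held 0.0404 ± 0.0197% of reads in fresh libraries, 0.118 ± 0.0111% in partly dried ones, 0.0611 ± 0.00539% in desiccated ones and 0.0384 ± 0.005% in rehydrated ones (SD, n = 3 each). Of 55 tested, 2 rose and 24 fell in rehydrated relative to 2% RWC leaves (median log2 fold -0.94), beside 31.1 and 25.4% of all tested contigs. In 2% against 100% RWC leaves 23 were called higher and 6 lower (median 0.83), beside 26 and 34.9% of all tested contigs. A relation of any of these lists to the copia contigs was not tested.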
